A study of Mus musculus with 12 samples.

Results

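Polycomb repressive complex 2 (PRC2) was followed through 10 genes that encode its core and accessory subunits: Ezh1, Ezh2, Eed, Suz12, Rbbp4, Jarid2, Aebp2, Phf1, Mtf2 and Phf19. They were taken by symbol from a table of 24132 gene symbols, and all 10 matched 1 row each; the choice was by name and not by a threshold on any value. The libraries came from fibroblasts of neonatal mouse tail tips, in 3 genotypes of the long noncoding RNA gene Hotair: knockout, heterozygous and wild type, with 2 poly(A) RNA-seq libraries each. All 3 genotypes had been backcrossed to C57BL6. The sources used here name neither the allele nor whether the 2 libraries of a genotype are from different animals or cultures. All p-values rest on the spread within 3 pairs of libraries, and that spread may be only technical. ChIP-seq libraries of knockout and wild-type cells belong to the same series and are not used here.

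PRC2 places methyl groups on lysine 27 of histone H3 (H3K27), a mark of silenced genes. Ezh2 or its paralogue Ezh1 is the catalytic subunit, Suz12 is the scaffold, Eed binds the mark and stimulates the enzyme, and Rbbp4 or its paralogue Rbbp7 binds histones. Accessory subunits divide the complex into forms: Jarid2 and Aebp2 belong to one, and the Polycomb-like proteins Phf1, Mtf2 and Phf19 belong to the other. Hotair is transcribed from the HoxC cluster and its human counterpart has been described as an RNA that binds PRC2. Ezh2 and Eed are known E2F-regulated genes, with higher levels in dividing cells, whereas Ezh1 is expressed in resting cells as well.

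Promoter windows are shown for 4 subunit genes, to set the 3 that hold an E2F-type motif beside Ezh1, the paralogue of Ezh2 whose window holds none. Each window is the RefSeq sequence (mouse build GRCm38.p6) running from 250 bases before to 50 bases after the annotated start site, written 5′ to 3′ along the gene's own strand, and capitals mark the motif. The Ezh2 window is chr6:47594981-47595280 on the minus strand, that of Suz12 is chr11:79992856-79993155 on the plus strand, that of Phf19 is chr2:34913927-34914226 on the minus strand and that of Ezh1 is chr11:101226414-101226713 on the minus strand.
Ezh2: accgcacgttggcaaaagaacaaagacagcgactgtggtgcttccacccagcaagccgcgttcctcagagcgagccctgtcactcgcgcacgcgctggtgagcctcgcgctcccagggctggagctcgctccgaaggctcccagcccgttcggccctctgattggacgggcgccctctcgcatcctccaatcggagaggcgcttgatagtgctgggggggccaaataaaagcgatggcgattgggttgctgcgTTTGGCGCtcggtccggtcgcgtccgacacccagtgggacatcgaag
Suz12: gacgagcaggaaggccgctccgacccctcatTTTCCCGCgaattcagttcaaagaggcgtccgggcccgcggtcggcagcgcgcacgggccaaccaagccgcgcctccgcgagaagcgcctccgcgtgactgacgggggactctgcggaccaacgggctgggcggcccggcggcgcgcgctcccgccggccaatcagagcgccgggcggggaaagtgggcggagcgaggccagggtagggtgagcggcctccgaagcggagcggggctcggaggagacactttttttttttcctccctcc
Phf19: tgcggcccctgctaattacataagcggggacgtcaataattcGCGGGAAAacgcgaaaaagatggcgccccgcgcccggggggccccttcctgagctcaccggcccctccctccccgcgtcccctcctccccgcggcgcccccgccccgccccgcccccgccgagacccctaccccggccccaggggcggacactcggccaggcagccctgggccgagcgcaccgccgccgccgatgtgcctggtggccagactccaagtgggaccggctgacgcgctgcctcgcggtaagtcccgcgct
Ezh1: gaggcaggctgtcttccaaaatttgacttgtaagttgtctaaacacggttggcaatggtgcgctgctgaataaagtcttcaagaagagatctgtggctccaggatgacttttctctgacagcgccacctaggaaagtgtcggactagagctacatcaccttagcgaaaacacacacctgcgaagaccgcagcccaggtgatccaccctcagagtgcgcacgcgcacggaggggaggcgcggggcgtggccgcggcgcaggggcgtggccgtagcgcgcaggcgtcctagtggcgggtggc

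The motifs searched were TTTCCCGC, TTTCGCGC, TTTGCCGC and TTTGGCGC on both strands. Ezh2 held TTTGGCGC at position 3 and Suz12 held TTTCCCGC at position -219, counted along the gene with the start site as position 0. Phf19 held TTTCCCGC on the opposite strand, printed as GCGGGAAA, at position -208. Each of the 3 windows held 1 match, so no matches overlapped. The windows of the other 7 subunit genes (14 windows in all for the 10 genes, since some have several start sites) held none of the 4 motifs. Of these 7, Eed, Aebp2, Jarid2 and Phf1 were called higher in knockout against wild type below. Ezh1 and Rbbp4 were not called, and Mtf2 was not tested. Motifs were present for 3 of the 10 subunit genes, against 704 of all 27025 symbols (2.6%). They were present for 381 of 7941 symbols also tested for expression (4.8%), and Phf19 was not tested. Of all 32851 windows 744 (2.26%) held one. All 4 motifs contain the letters CG. The Ezh2, Suz12 and Phf19 windows held 31, 41 and 38 CG, against medians of 7 in all windows and 21 in those of tested symbols. The Rbbp4 window held 39 and no motif. Shares at a like CG content were not computed. A match describes these letters in these windows and is not evidence of binding.

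The cells were first checked against their labels. Hotair read 0 RPKM (a read count scaled to the length of the gene and to the library's total) in both knockout libraries, against 0.213 and 0.172 RPKM in heterozygous and 0.247 and 0.183 RPKM in wild-type libraries. At the knockout depth, 3 reads over the pair of libraries would have been 0.0287 RPKM. The heterozygous and wild-type values overlapped and rested on 5.69 to 8.12 read equivalents (reads recovered from the values) a library. Hotair therefore does not tell heterozygous from wild-type cells. All 10 fibroblast markers, among them Col1a1 and Vim, were above 1 RPKM in every library, and their summed level was 4256 and 4289 RPKM in knockout, 4659 and 4755 RPKM in heterozygous and 5103 and 5115 RPKM in wild-type libraries. The markers did not move together: in knockout against wild type 3 rose (Lum 5.90-fold, Pdgfra 2.54-fold and Dcn 2.25-fold in mean RPKM, by limma), 6 fell, Col1a1 and Vim among them, and 1 did not pass. Sequencing depth, recovered from the values in read equivalents, was 48.1M and 46.0M in knockout, 33.2M and 31.2M in heterozygous and 29.6M and 27.9M in wild-type libraries.

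The genotypes also differed in sex-linked genes and in markers of other cell types. Xist, the noncoding RNA of the inactive X chromosome, read 0.0209 and 0.00606 RPKM in knockout, 4.65 and 4.46 RPKM in heterozygous and 0.0414 and 0.0479 RPKM in wild-type libraries. The Y-linked RNA helicase Ddx3y read 2.88 and 2.86 RPKM in knockout, 0.133 and 0.216 RPKM in heterozygous and 1.68 and 1.80 RPKM in wild-type libraries. The Y-linked genes Kdm5d, Eif2s3y and Uty had the same order of genotypes. The heterozygous cells thus differed from both other genotypes in sex-linked expression, and for every comparison with them genotype and sex-linked expression cannot be told apart. Knockout and wild type differed in Y-linked genes as well. Ddx3y, Kdm5d and Eif2s3y were higher in knockout (1.65-fold, 1.73-fold and 2.74-fold in mean RPKM, limma adjusted p = 0.000213, 0.0002 and 6.59e-06). Whether this bears on the subunit levels was not tested. A set of 10 macrophage and leukocyte markers summed to 51.9 and 52.2 RPKM in knockout, 8.37 and 7.41 RPKM in heterozygous and 10.2 and 8.82 RPKM in wild-type libraries. The filter on low values described below was passed by 6 of them (4 without the knockout libraries), and 5 of these were higher in knockout than in wild-type cells. The other 4 (Emr1, Itgam, Ptprc and Aif1) were under 1 RPKM in every library and were not tested. Emr1 read 0.397 and 0.275 RPKM in knockout and at most 0.0411 RPKM elsewhere, and Itgam 0.270 and 0.230 RPKM and at most 0.0228 RPKM. Ptprc read 0.0576 and 0.0683 RPKM in knockout and at most 0.0237 RPKM elsewhere. Aif1 overlapped between knockout (0.0440 and 0.0246 RPKM) and heterozygous libraries (0.0341 and 0.0364 RPKM). Schwann cell markers, 7 in number, summed to 15.6 and 16.3 RPKM in knockout, 35.1 and 33.8 RPKM in heterozygous and 27.6 and 27.7 RPKM in wild-type libraries. The 4 adipocyte markers summed to 6.66 and 7.17 RPKM in knockout, 4.12 and 3.49 RPKM in heterozygous and 2.78 and 2.74 RPKM in wild-type libraries, the order that most subunit genes have below. Fabp4 and Cebpa, which carried that sum, rose in knockout against wild type (3.31-fold and 1.75-fold in mean RPKM; limma adjusted p = 5.07e-06 and 0.000364), while Adipoq was at 0 in every library. Skeletal muscle markers, 6 in number, summed to 161 and 162 RPKM in knockout, 163 and 159 RPKM in heterozygous and 245 and 246 RPKM in wild-type libraries, nearly all of it Acta1, with Myod1 and Myf5 at 0 in every library. All keratinocyte, endothelial and pluripotent cell markers were under 1 RPKM. Whether these markers bear on the subunit levels was not tested, and in bulk RNA fewer cells of a type and less RNA per cell cannot be told apart.

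Of the 10 PRC2 subunit genes, 8 lay in one order, highest in knockout, between in heterozygous and lowest in wild-type libraries, with no overlap between genotypes. The exceptions were Ezh1 and Rbbp4. Among the 8 subunit genes that passed the filter on low values (1 RPKM or more in at least 2 libraries), 6 had this order, against 22.7% of all 10897 genes tested, and 32.3% of those that averaged under 3 RPKM. All 10 subunits summed to 52.0 and 51.49 RPKM in knockout, 51.68 and 49.34 RPKM in heterozygous and 44.05 and 45.09 RPKM in wild-type libraries. Knockout and heterozygous libraries overlapped in this sum. Without Rbbp4, the most abundant, the 9 remaining subunits summed to 26.7 and 26.4 RPKM in knockout, 23.0 and 21.9 RPKM in heterozygous and 18.2 and 18.6 RPKM in wild-type libraries.

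**Figure D1:**
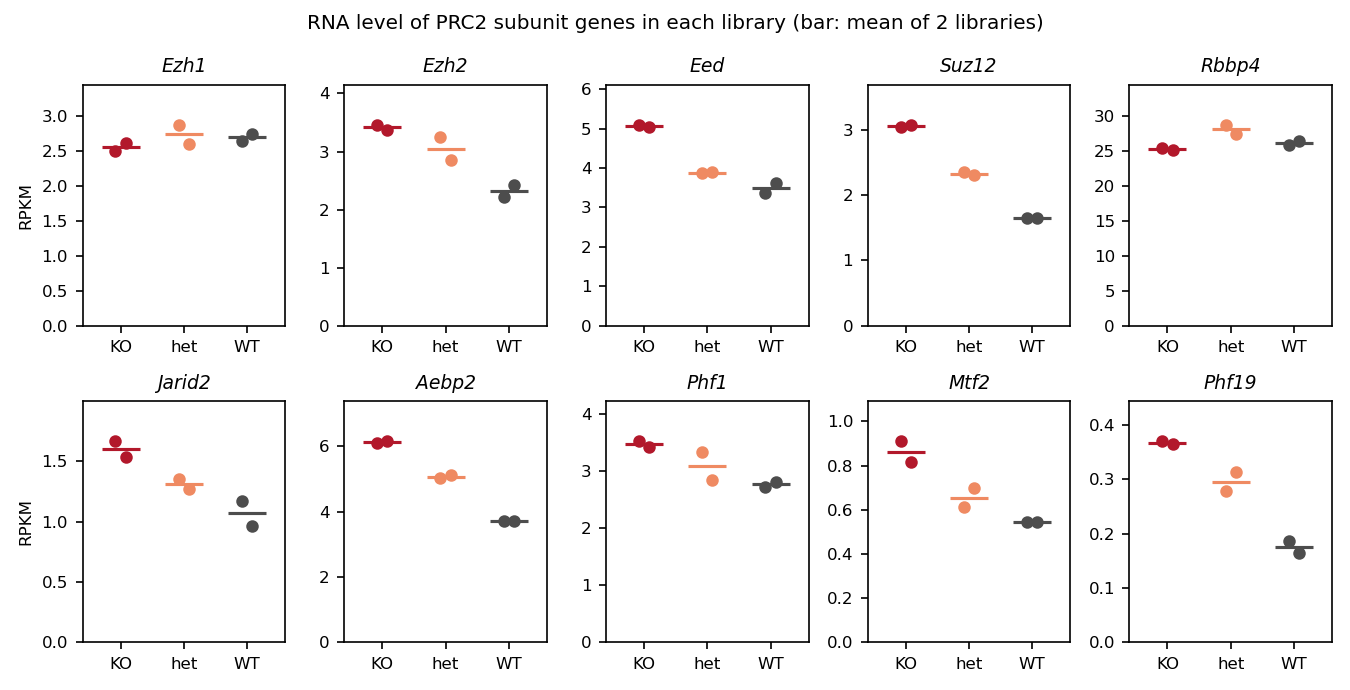
RNA level (RPKM, linear axis from 0, a separate scale in each panel) of the 10 PRC2 subunit genes in each library; points are libraries (KO, knockout; het, heterozygous; WT, wild type; 2 each) and bars are means. Knockout lies above heterozygous and heterozygous above wild type in every panel but those of Ezh1 and Rbbp4.

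In knockout against wild-type cells, 6 of the 8 tested subunit genes rose (Suz12, Aebp2, Eed, Ezh2, Jarid2 and Phf1) and 0 fell, also at an unadjusted p under 0.05 (limma on log2(RPKM + 1), Benjamini-Hochberg adjusted p under 0.05). With another scaling of the libraries 4 were higher and 1 lower (Ezh1; quantile or cyclic loess normalization) or 5 higher and 1 lower (Rbbp4; median scaling). Of all 10897 genes tested, 40.6% were higher and 26.6% lower in knockout cells, so 67.2% were called either way and a call by itself was common. That balance turned with the scaling, from 4421 higher and 2903 lower to 3254 and 3712 under quantile, 3479 and 3891 under median and 3412 and 3542 under loess normalization. Genes of low level were called higher more often. Of genes averaging under 3 RPKM 55.3% were higher, and 3 of 4 subunit genes, while of those between 3 and 10 RPKM 41.9% were higher, and 3 of 3 subunit genes. The median difference on the log2 scale was 0.37 over the 8 subunit genes, against 0.06 over all genes tested. It fell to 0.16 under quantile, 0.17 under loess and 0.29 under median scaling. The medians of all genes were then -0.02, -0.01 and -0.02. In the fit reported, genes averaging under 3 RPKM had a median of 0.23 and those between 3 and 10 RPKM one of 0.07. Heterozygous against wild-type cells gave 4 subunit genes higher and 0 lower (6 and 0 at an unadjusted p under 0.05), against 35.5% higher and 17.1% lower over all genes. Knockout against heterozygous cells gave 3 higher and 1 lower, against 26.4% higher and 25.4% lower over all genes. Over all genes, 52.6% were called either way in the comparison of heterozygous with wild type and 51.8% in that of knockout with heterozygous. Called either way, the subunit counts lay close to the background in all 3 comparisons. They were 6 of 8 in knockout against wild type (67.2% of all genes) and 4 of 8 in each of the others. Libraries that did not overlap were commoner still. In knockout against wild type 6 tested subunit genes lay higher (49.3% of all genes) and 2 lower (34.5%). In heterozygous against wild type 7 lay higher (50.4%) and 0 lower (25.6%), and in knockout against heterozygous 6 lay higher (39.2%) and 1 lower (38.6%). The 3 comparisons share libraries pairwise, so they are not independent of each other.

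The catalytic subunits parted. Ezh2 read 3.46 and 3.38 RPKM in knockout, 3.25 and 2.86 RPKM in heterozygous and 2.22 and 2.42 RPKM in wild-type libraries. All knockout and heterozygous libraries lay above both wild-type libraries, and the step between knockout and heterozygous was about as wide as the gap within the heterozygous pair. The difference of Ezh2 on the log2(RPKM + 1) scale was 0.41 ± 0.06 (SE) in knockout against wild type (1.47-fold in mean RPKM; limma adjusted p = 0.000733). It was 0.28 ± 0.06 in heterozygous against wild type (adjusted p = 0.00691) and 0.13 ± 0.06 in knockout against heterozygous (adjusted p = 0.121). The call in heterozygous cells was lost under quantile normalization (0.15, limma adjusted p = 0.0935) and under cyclic loess normalization (0.17, adjusted p = 0.06). Without heterozygous replicate 1 the difference of knockout from heterozygous passed (0.20, limma adjusted p = 0.0484).

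Ezh1 read 2.50 and 2.62 RPKM in knockout, 2.88 and 2.61 RPKM in heterozygous and 2.65 and 2.75 RPKM in wild-type libraries. The knockout pair lay just below the wild-type pair, and the heterozygous pair spanned the wild-type pair and reached into the knockout pair. Its differences were -0.05 ± 0.05 in knockout against wild type (limma adjusted p = 0.399), 0.02 ± 0.05 in heterozygous against wild type (adjusted p = 0.821) and -0.07 ± 0.05 in knockout against heterozygous (adjusted p = 0.308), none of them called. Under quantile and cyclic loess normalization, which bring the distributions of the libraries together, Ezh1 was called lower in knockout than in wild-type cells (-0.26, limma adjusted p = 0.00449, and -0.23, adjusted p = 0.00792).

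The ratio of the catalytic paralogues followed from these levels. Ezh2 over Ezh1 was 1.39 and 1.29 in knockout, 1.13 and 1.10 in heterozygous and 0.840 and 0.882 in wild-type libraries. Ezh1 was thus the higher of the pair per length in both wild-type libraries and Ezh2 in the other 4, with no overlap between genotypes. With 2 libraries against 2, the smallest two-sided p an exact permutation test can give is 0.333, so the ratios carry no test.

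The scaffold gene Suz12 read 3.04 and 3.07 RPKM in knockout, 2.35 and 2.30 RPKM in heterozygous and 1.64 and 1.65 RPKM in wild-type libraries. The steps between genotypes were many times wider than the gaps between replicates. Suz12 differed by 0.62 ± 0.05 in knockout against wild type (1.85-fold; limma adjusted p = 2.04e-05). Its other differences were 0.33 ± 0.05 in heterozygous against wild type (adjusted p = 0.000923) and 0.29 ± 0.05 in knockout against heterozygous (adjusted p = 0.00168).

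Eed, which reads the methyl mark, was 5.10 and 5.03 RPKM in knockout, 3.87 and 3.90 RPKM in heterozygous and 3.37 and 3.62 RPKM in wild-type libraries. Here the wide step lay between knockout and heterozygous. Eed differed by 0.43 ± 0.05 in knockout against wild type (1.45-fold; limma adjusted p = 0.000124) and by 0.31 ± 0.05 in knockout against heterozygous (adjusted p = 0.00121). The 0.12 ± 0.05 in heterozygous against wild type did not pass (limma adjusted p = 0.0594), but passed without wild-type replicate 2 (0.16, adjusted p = 0.0433).

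Rbbp4, a histone-binding protein that also sits in the NuRD, Sin3 and CAF-1 complexes, was the most abundant subunit RNA at 25.3 and 25.1 RPKM in knockout, 28.7 and 27.4 RPKM in heterozygous and 25.8 and 26.5 RPKM in wild-type libraries. Its order was unlike that of the 8 genes above, with heterozygous highest and knockout lowest. It did not pass in knockout against wild type (-0.05 ± 0.03; limma adjusted p = 0.219). That value was 0.01 under quantile and 0.02 under loess normalization, and median scaling called it lower (-0.13, adjusted p = 0.0156). Rbbp4 was 0.10 ± 0.03 higher in heterozygous than in wild-type cells (limma adjusted p = 0.0364), a call lost in 12 of 17 alternatives, among them leaving out any one library but heterozygous replicate 2 (adjusted p between 0.0587 and 0.174). It was 0.15 lower in knockout than in heterozygous cells (-0.15 ± 0.03, adjusted p = 0.00746), a call lost under quantile (-0.10, adjusted p = 0.0721) and loess normalization (-0.09, adjusted p = 0.0742). Its paralogue Rbbp7 read 32.7 and 32.8 RPKM in knockout, 26.2 and 25.8 RPKM in heterozygous and 28.9 and 26.3 RPKM in wild-type libraries. It rose in knockout against wild type (0.24 ± 0.04; limma adjusted p = 0.0021). Rbbp4 over Rbbp7 was therefore 0.774 and 0.766 in knockout, 1.10 and 1.07 in heterozygous and 0.892 and 1.01 in wild-type libraries, lowest in knockout cells without overlap. The sources used here do not give how reads shared between such paralogues were counted.

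Of the accessory subunits, the zinc-finger protein Aebp2 read 6.09 and 6.16 RPKM in knockout, 5.03 and 5.12 RPKM in heterozygous and 3.73 and 3.71 RPKM in wild-type libraries. Its replicates lay close together and far from the other genotypes. Suz12 and Aebp2 had the 2 largest differences of the tested subunit genes, and their order turned with the pseudocount (with 5 in place of 1, Suz12 was 0.28 and Aebp2 0.35). Aebp2 rose by 0.59 ± 0.04 in knockout against wild type (1.65-fold; limma adjusted p = 1.28e-05). It rose by 0.36 ± 0.04 in heterozygous against wild type (adjusted p = 0.0003) and by 0.23 ± 0.04 in knockout against heterozygous (adjusted p = 0.00245). Aebp2 and Suz12 were the 2 subunit genes called higher in all 3 comparisons, which 12.1% of all tested genes were as well.

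Jarid2, which helps bring the complex to its targets, read 1.67 and 1.54 RPKM in knockout, 1.36 and 1.27 RPKM in heterozygous and 1.17 and 0.963 RPKM in wild-type libraries. The genotypes were ordered without overlap, but the steps were little wider than the gap within the wild-type pair. Jarid2 rose by 0.33 ± 0.07 in knockout against wild type (1.499-fold; limma adjusted p = 0.0033). This call was lost under quantile (0.11, adjusted p = 0.185) and loess normalization (0.07, adjusted p = 0.379). It was 0.16 ± 0.07 in heterozygous against wild type (limma adjusted p = 0.078; 0.24 with adjusted p = 0.0352 without wild-type replicate 1). It was 0.17 ± 0.07 in knockout against heterozygous (limma adjusted p = 0.0673), which passed without wild-type replicate 1 or 2 (adjusted p = 0.0447 and 0.0445) and with only the genotypes compared (adjusted p = 0.0437).

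The Polycomb-like proteins carry a Tudor domain and help the complex bind chromatin. Phf1 read 3.52 and 3.42 RPKM in knockout, 3.34 and 2.84 RPKM in heterozygous and 2.72 and 2.81 RPKM in wild-type libraries, the smallest difference among the 6 that rose. It was 0.25 ± 0.06 in knockout against wild type (1.255-fold; limma adjusted p = 0.0109). The call was lost under quantile (0.06, adjusted p = 0.449), median (0.17, adjusted p = 0.0637) and loess normalization (0.09, adjusted p = 0.272) and without knockout replicate 1 (0.23, adjusted p = 0.0585). The heterozygous pair was far apart. Phf1 was 0.12 ± 0.06 in heterozygous against wild type (limma adjusted p = 0.167; 0.20 with adjusted p = 0.0298 without heterozygous replicate 2). It was 0.13 ± 0.06 in knockout against heterozygous (adjusted p = 0.125; 0.22 with adjusted p = 0.0235 without heterozygous replicate 1).

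Mtf2 and Phf19 lay under the filter and have no test in the fit reported here. Mtf2 read 0.910 and 0.817 RPKM in knockout, 0.613 and 0.698 RPKM in heterozygous and 0.545 and 0.544 RPKM in wild-type libraries. The ratio of its mean RPKM was 1.59 in knockout over wild type. Phf19 read 0.370 and 0.364 RPKM in knockout, 0.278 and 0.313 RPKM in heterozygous and 0.187 and 0.165 RPKM in wild-type libraries, a ratio of 2.09 in knockout over wild type. Both kept the genotypes apart, but Phf19 rested on only 8.62 to 33.4 read equivalents a library and Mtf2 on 79.6 to 230. In the fit with no filter on low values, Mtf2 passed in knockout against wild type (limma adjusted p = 0.00638) and so did Phf19 (adjusted p = 0.00159). That made 8 of 10 subunit genes higher in that fit, against 28.7% of its 18888 genes. This share takes in every gene above 0 in any library. Among the 10897 genes that passed the filter, 40.6% were higher in the fit reported. Shares at a like level were not computed for the fit with no filter.

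**Figure D2:**
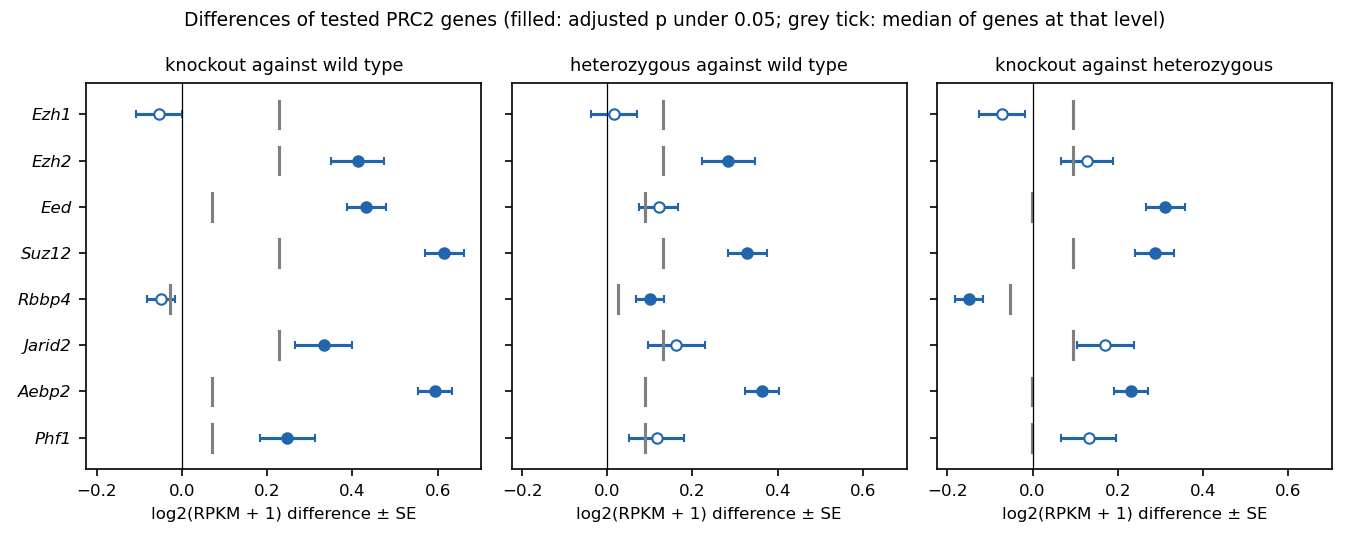
Differences of the 8 tested PRC2 subunit genes on the log2(RPKM + 1) scale, as points with their SE, in the 3 comparisons; filled points had an adjusted p under 0.05 and grey ticks mark the median of all tested genes in the same range of level (under 3, 3 to 10 or 10 to 30 RPKM). In knockout against wild type, 6 points lie right of their tick and are filled; Ezh1 and Rbbp4 lie left of theirs and are open.

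Within each genotype the order of levels per length was nearly the same. Rbbp4 came first, then Aebp2 and then Eed, without overlap between them, and Jarid2, Mtf2 and Phf19 came last in that order. Phf1 followed Eed in every genotype and overlapped the next gene each time: Ezh2 in knockout and heterozygous cells and Ezh1 in wild-type cells. Ezh2 and Ezh1 overlapped in heterozygous cells, and no other neighbours in the order did. The one exchange of places was that of Ezh1, which ranked 7 of 10 in knockout, 6 in heterozygous and 5 in wild-type cells, as Ezh2 and Suz12 passed it in knockout cells.

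The Polycomb-like paralogues had 2 further ratios. Phf19 over Mtf2 was 0.406 and 0.446 in knockout, 0.453 and 0.448 in heterozygous and 0.344 and 0.303 in wild-type libraries. Mtf2 over Phf1 was 0.259 and 0.239 in knockout, 0.184 and 0.246 in heterozygous and 0.200 and 0.194 in wild-type libraries. For the Phf19 ratio both mutant genotypes lay above wild type, while for the Mtf2 ratio the heterozygous libraries spanned wild type and reached between the knockout libraries. The log2 ratio of Phf19 over Mtf2, knockout minus wild type, turned from 0.40 to -0.0535 when 1 RPKM was added to both genes, since these levels lie below 1 RPKM.

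**Figure D3:**
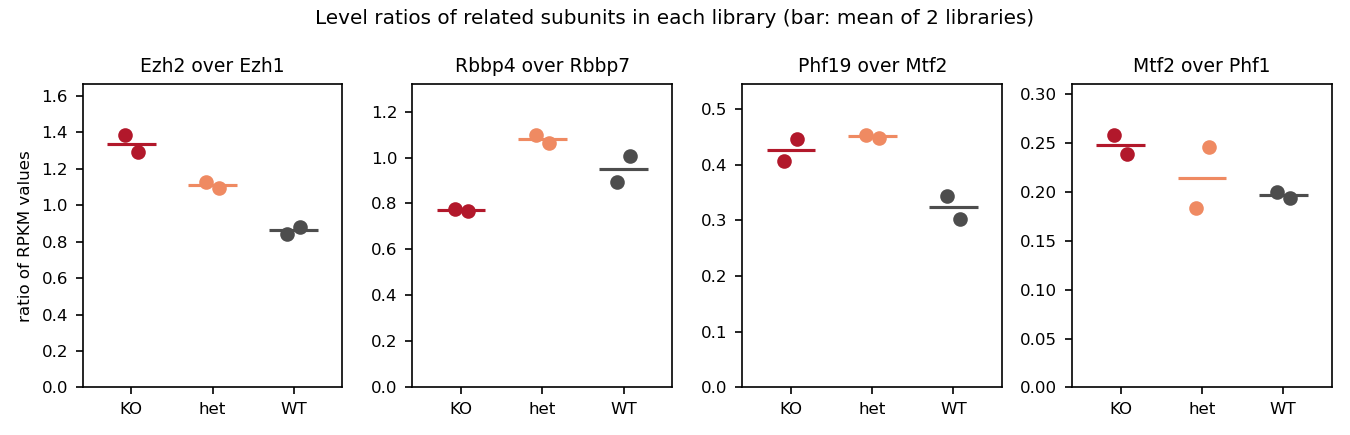
Ratio of RPKM values of related subunit genes in each library (linear axes from 0; points are libraries, bars are means of 2; KO, knockout; het, heterozygous; WT, wild type). Ezh2 over Ezh1 lies above 1 in knockout and heterozygous and below 1 in wild-type libraries; the difference for Phf19 over Mtf2 between knockout and wild type changes sign when 1 RPKM is added to both genes.

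Other genes of the H3K27 pathway were read from lists that name them by function. Among further PRC2-associated subunits, Lcor and Lcorl lay under the filter (at most 0.355 and 0.161 RPKM), Ezhip (in the table as AU022751), an inhibitor of the enzyme, was listed at 0 in every library, and Epop (E130012A19Rik) did not pass (0.07 ± 0.13; limma adjusted p = 0.661). The sign of the Epop difference turned under quantile, median and loess normalization. Both tested H3K27 demethylases, which remove the mark, rose in knockout against wild type. Of all tested genes 40.6% were higher. In the range of Kdm6a (under 3 RPKM) 55.3% were, and in that of Kdm6b (3 to 10 RPKM) 41.9%. Kdm6a read 1.42 and 1.47 RPKM in knockout, 1.43 and 1.45 RPKM in heterozygous and 0.645 and 0.534 RPKM in wild-type libraries (knockout against wild type 0.62 ± 0.06; limma adjusted p = 6.11e-05). Kdm6b read 6.89 and 7.04 RPKM in knockout, 5.78 and 6.04 RPKM in heterozygous and 5.74 and 5.32 RPKM in wild-type libraries (0.29 ± 0.05; limma adjusted p = 0.00121). Kdm6a, which is X-linked, did not pass in knockout against heterozygous (0.00219 ± 0.06; limma adjusted p = 0.977), whereas Kdm6b was higher in knockout than in heterozygous cells (0.20 ± 0.05; adjusted p = 0.00926). Uty, the Y-linked relative of Kdm6a, lay under the filter at 0.875 and 0.914 RPKM in knockout, 0.0283 and 0.0241 RPKM in heterozygous and 0.338 and 0.303 RPKM in wild-type libraries.

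The second Polycomb complex, PRC1, binds or ubiquitinates chromatin at many of the same genes. Of its 19 tested genes, 9 rose, 3 fell and 7 did not pass in knockout against wild type. Over all tested genes 40.6% were higher and 26.6% lower. The PRC1 median was 0.15, against 0.37 for the PRC2 genes and 0.06 for all genes. Under quantile and loess normalization 6 fell, and the PRC1 medians were -0.00443 and 0.00857, against 0.16 and 0.17 for PRC2. Under median scaling they were 0.07 and 0.29. Its 3 most abundant members went different ways. The Polyhomeotic-like Phc2 fell (-0.34 ± 0.03; limma adjusted p = 4.87e-05), the chromodomain protein Cbx6 rose (0.20 ± 0.03; adjusted p = 0.000854) and Pcgf3 did not pass (-0.04 ± 0.04; adjusted p = 0.455), though it was called lower under median scaling (-0.12, adjusted p = 0.0406). The complexes that share Rbbp4 with PRC2 (NuRD, Sin3 and CAF-1) gave 8 higher, 6 lower and 4 not called of 18, with a median of 0.04. Their most abundant members were the methyl-CpG-binding-domain protein Mbd3 (-0.09 ± 0.04; limma adjusted p = 0.0627), the remodeller Chd4 (0.03 ± 0.02; adjusted p = 0.293) and the deacetylase Hdac1, which rose (0.18 ± 0.03; adjusted p = 0.00125). Mbd3 and Chd4 did not pass, but both depended on the setting. Mbd3 was called lower under median scaling (-0.17, limma adjusted p = 0.00341), with only the genotypes compared (adjusted p = 0.0429) and without heterozygous replicate 1 or 2 or knockout replicate 2 (adjusted p = 0.0433, 0.0432 and 0.0292). Chd4 was called higher under quantile (0.11, limma adjusted p = 0.00677) and loess normalization (0.13, adjusted p = 0.00302).

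Most of the tested cell-cycle genes rose in knockout against wild type. Of 30 S phase and E2F target genes, 26 passed the filter. By limma in knockout against wild type 20 of these rose, 0 fell (0 also at an unadjusted p under 0.05) and 6 did not pass. Over all tested genes 40.6% were higher and 26.6% lower. Under median scaling 17 of the 26 rose and 2 fell. Rrm1, Fen1, E2f1 and Ccne1, which did not pass, had differences of -0.07, -0.03, -0.03 and -0.02 (named after their values were seen). The median over the 26 was 0.23 (0.17 under quantile and loess normalization, 0.15 under median scaling). Without the knockout libraries 25 of the 26 would have passed the filter. The replication clamp Pcna read 41.3 and 41.4 RPKM in knockout, 35.9 and 35.7 RPKM in heterozygous and 27.3 and 24.8 RPKM in wild-type libraries (0.65 ± 0.04; limma adjusted p = 1.2e-05). The helicase subunit Mcm7 rose as well (0.39 ± 0.05; limma adjusted p = 0.000238), as did the ribonucleotide reductase subunit Rrm2 (0.12 ± 0.04; adjusted p = 0.0273). The call of Rrm2 was lost under median scaling (0.04, adjusted p = 0.392), with no filter (adjusted p = 0.0507) and without wild-type replicate 1 (0.07, adjusted p = 0.135) or either knockout replicate (0.12 and 0.13, adjusted p = 0.106 and 0.082).

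Of 22 mitosis genes, 16 passed the filter and all 16 were higher in knockout against wild type (15 under quantile normalization). Of all tested genes 40.6% were higher, with 55.3% of those averaging under 3 RPKM and 41.9% of those between 3 and 10 RPKM. The median over the 16 was 0.57 (0.34 under quantile and loess normalization, 0.49 under median scaling). Without the knockout libraries 14 of the 16 would have passed the filter, so the count describes the tested genes and not all 22. The most abundant were the anaphase activator Cdc20 (0.31 ± 0.04; limma adjusted p = 0.000472), the kinase Cdk1 (0.35 ± 0.04; adjusted p = 0.000181) and the kinase Aurka (0.32 ± 0.05; adjusted p = 0.00109). In heterozygous against wild-type cells 9 of these 16 were higher (35.5% of all tested genes), and in knockout against heterozygous cells 16 were (26.4%). The part of the cell cycle in the subunit differences was not tested.

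Pocket proteins and repressive E2F factors hold E2F target genes down. Of 6 such genes, 5 rose in knockout against wild type and 1 fell. Over all tested genes 40.6% were higher and 26.6% lower. Rbl1 and E2f7 passed the filter only with the knockout libraries. The retinoblastoma gene Rb1 was 1.85 and 1.82 RPKM in knockout, 1.38 and 1.39 RPKM in heterozygous and 1.08 and 1.17 RPKM in wild-type libraries (0.42 ± 0.05; limma adjusted p = 0.000276). Its relatives Rbl1 (0.41 ± 0.06; limma adjusted p = 0.000614) and Rbl2 (0.38 ± 0.05; adjusted p = 0.000392) rose too, with E2f7 (0.39 ± 0.08; adjusted p = 0.00417) and E2f4 (0.18 ± 0.05; adjusted p = 0.0212). Rbl1 and E2f7 did not pass under quantile (0.13, adjusted p = 0.0779, and 0.12, adjusted p = 0.24) or loess normalization (0.11, adjusted p = 0.132, and 0.10, adjusted p = 0.337). E2f4 did not pass without wild-type replicate 1 (0.13, limma adjusted p = 0.119) or knockout replicate 1 (0.15, adjusted p = 0.104), under median scaling (0.10, adjusted p = 0.125) or with no filter (adjusted p = 0.0589). E2f6, a repressor found with Polycomb proteins, fell. It read 8.36 and 8.10 RPKM in knockout, 10.4 and 10.8 RPKM in heterozygous and 11.4 and 11.8 RPKM in wild-type libraries (-0.45 ± 0.04; limma adjusted p = 4.97e-05).

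**Figure D4:**
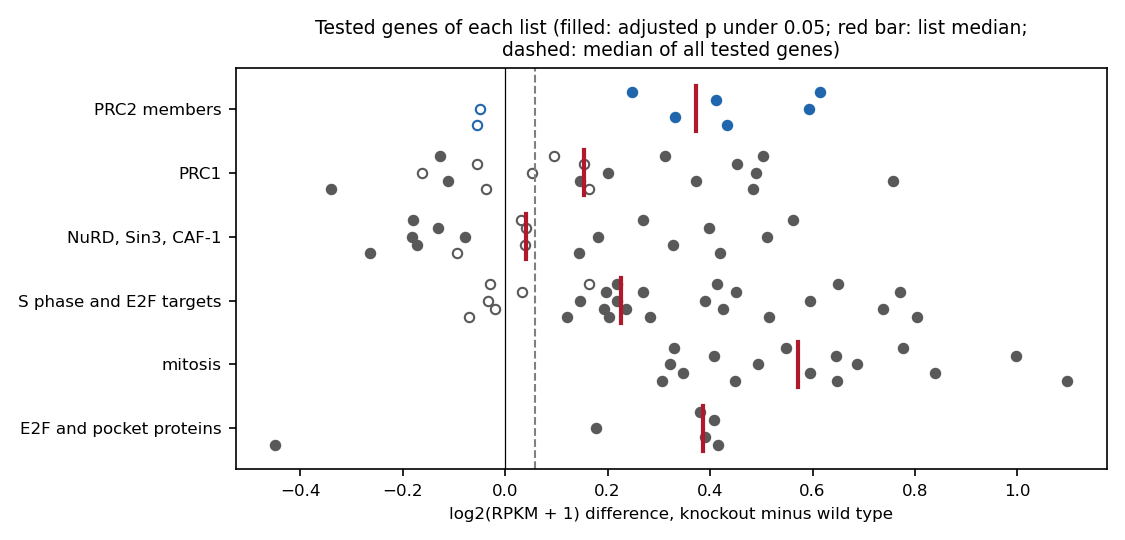
Differences on the log2(RPKM + 1) scale, knockout minus wild type, of every tested gene of the PRC2 list and 5 further lists; each point is a gene, filled where the adjusted p was under 0.05, red bars mark list medians and the dashed line marks the median of all tested genes (0.06). The list medians run from 0.04 for NuRD, Sin3 and CAF-1 to 0.57 for mitosis, with 0.37 for PRC2. They depend on scaling: under quantile normalization PRC2 had 0.16, mitosis 0.34, PRC1 -0.00443 and NuRD, Sin3 and CAF-1 0.10. Height within a row has no meaning.

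The Ink4 genes are a textbook target of PRC2 in dividing fibroblasts and encode inhibitors of cyclin-dependent kinases. Cdkn2a read 51.2 and 51.4 RPKM in knockout, 56.3 and 59.1 RPKM in heterozygous and 83.7 and 83.7 RPKM in wild-type libraries. Cdkn2b read 33.4 and 33.3 RPKM in knockout, 35.8 and 37.0 RPKM in heterozygous and 46.8 and 46.0 RPKM in wild-type libraries. Both ran opposite to Suz12, Eed and Ezh2, with knockout lowest and no overlap. Of all tested genes 12.2% had this falling order. Of genes averaging 30 to 100 RPKM, the range of both, 52.3% were lower in knockout and 38.7% in heterozygous than in wild-type cells. Whether PRC2 bears on the Ink4 levels was not tested. Cdkn2a fell by 0.70 on the log2 scale (-0.70 ± 0.03; limma adjusted p = 1.13e-06) and Cdkn2b fell by 0.46 (-0.46 ± 0.03; adjusted p = 7.59e-06) in knockout against wild type. Both were also lower in heterozygous than in wild-type cells (-0.53 ± 0.03, limma adjusted p = 8.87e-06, and -0.34 ± 0.03, adjusted p = 7.4e-05). The row of Cdkn2a does not tell its 2 products, p16 and p19, apart.

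The genes whose pattern over the 6 libraries lay nearest to that of Ezh2, by root mean square difference of mean-centred log2(RPKM + 1) values, were Arid2 (0.0246), 2810407C02Rik (0.0256) and Kif5c (0.0291). Arid2, a subunit of a SWI/SNF remodelling complex, read 3.32 and 3.21 RPKM in knockout, 3.03 and 2.68 RPKM in heterozygous and 2.07 and 2.14 RPKM in wild-type libraries. Likeness of this kind was common, since 1438 of the other 10896 tested genes lay within 0.1 of Ezh2.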

How the data were processed

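RNA was selected for poly(A) and libraries were made by a dUTP method, per the labels' protocols. Alignment was to mm9 by TopHat, per the submitters' processing notes. The deposited table gives 1 value per symbol and library and its header names no unit. The authors' deposited numbers show that it is RPKM: times a whole gene length (found for 18888 of 18888 genes above 0, within 0.002 bases) they give whole aligned bases of 74-base reads. The use of strand in counting, the annotation version and any filter were not given in the sources used here. Read equivalents come from those lengths, and between 47.5% and 48.8% of each library fell in gene rows.

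Genes reaching 1 RPKM in 2 or more of 6 libraries (10897) were taken as log2(RPKM + 1), which understates changes of low genes. limma 3.58.1 (R 4.3.3) fitted 3 genotype means with an intensity trend and 3 residual degrees of freedom. Tests were two-sided, p-values were adjusted over all genes by the Benjamini-Hochberg method, and the threshold was 0.05. The script was tested on simulated data. Errors are SE of the model. The typical gene varied between replicates by no more than counting noise (robust variance 0.868 of the counting variance in knockout, 0.867 in heterozygous and 0.806 in wild type). The mean squared z was above 1 (1.67 in knockout, 1.42 in heterozygous and 1.23 in wild type), a mean open to the 54, 53 and 42 genes beyond 4 SD. The replicates were kept as 2 libraries, and p-values rest on this small spread. Alternatives changed the pseudocount, filter, scaling, trend, block, libraries and minimum fold.

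The subunits and gene lists were chosen with earlier results of these data known. Named genes are all 10 subunits, Hotair, every gene of lists of up to 6 symbols, the 3 most abundant of longer lists and the 3 nearest to Ezh2; other marker genes are named as examples. Promoter windows and start sites are from RefSeq (GRCm38.p6), not from the build of the alignments, and motifs were matched by exact letters.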

Additional observations from a re-analysis of the deposited data

How the results depend on the processing

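Suz12, Aebp2 and Eed kept their call in knockout against wild type in every alternative in which they were tested. Ezh2 kept it in all but a minimum change of 1.2-fold (limma adjusted p = 0.0881). Eed passed a filter at 5 RPKM only through its knockout libraries (5.10 and 5.03 RPKM, at most 3.90 RPKM elsewhere). Its call at that filter is therefore no separate support. The number of subunit genes called in that comparison was 6; it was 2 of 3 tested with a filter at 5 RPKM, 3 with a minimum change of 1.2-fold, and 5 to 6 when single libraries were left out. In heterozygous against wild type it was 4, and 2 with the filter at 5 RPKM, 2 under quantile normalization, 0 with the 1.2-fold minimum and 3 to 5 without single libraries. In knockout against heterozygous it was 4, and 0 with the 1.2-fold minimum and 4 to 6 without single libraries (limma; at an unadjusted p under 0.05 the 1.2-fold minimum gave 1 in heterozygous against wild type and 0 in knockout against heterozygous). With that minimum, 7 of 26 S phase and 11 of 16 mitosis genes were called in knockout against wild type. Of all 10897 genes tested 2561 were called at that setting (1743 higher, 818 lower). Only 14 of the 16 mitosis genes would have passed the filter without the knockout libraries. Over all genes, 7324 were called in knockout against wild type (4421 higher, 2903 lower). That was 4754 (2291 higher, 2463 lower) with the filter at 5 RPKM, 2561 with the 1.2-fold minimum and 6016 to 7371 without single libraries. In heterozygous against wild type 5729 were called (3865 higher, 1864 lower), 929 with the 1.2-fold minimum and 4711 to 5173 without single libraries. In knockout against heterozygous 5644 were called, 836 with the 1.2-fold minimum and 3922 to 5689 without single libraries. The split into higher and lower calls depended on scaling: in knockout against wild type it was 3254 and 3712 under quantile, 3479 and 3891 under median and 3412 and 3542 under loess normalization; in heterozygous against wild type it was 2397 and 2292, 2371 and 2839, and 2536 and 2377 in the same order. The largest shift that scaling gave to the median of all genes was -0.0816 (quantile, knockout against wild type).

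Knockout minus wild type, the log2 ratio of Ezh2 over Ezh1 was 0.635, or 0.467 with 1 RPKM added to each gene. That of Phf19 over Mtf2 was 0.40 and turned to -0.0535, and that of Mtf2 over Phf1 was 0.336 and became 0.0232 (0.117 under quantile normalization). Rbbp4 over Rbbp7 was -0.298, and -0.384 to -0.211 without single libraries; without single libraries the other 3 ranged over 0.584 to 0.686, 0.308 to 0.492 and 0.279 to 0.394. Differences not called in the fit reported turned sign as follows, and the cause was not tested. In knockout against wild type, Rbbp4 was 0.0143 (quantile) and 0.0207 (loess), Pcgf3 0.00857 (loess) and -0.0746 to 0.00208 without single libraries, Mbd3 0.00997 (loess), Chd4 -0.0482 (median; called higher under quantile and loess normalization), and E130012A19Rik -0.221 (quantile), -0.0119 (median), -0.233 (loess), and -0.107 to 0.144 without single libraries, turning without wild-type replicate 2 (-0.107) and knockout replicate 2 (-0.00875). In heterozygous against wild type, Ezh1 was -0.122 (quantile), -0.0589 (median), -0.0991 (loess), and -0.0362 to 0.0682 without single libraries, turning without wild-type replicate 1 (-0.00383) and heterozygous replicate 1 (-0.0362), and Phf1 was -0.0155 (quantile).

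Same-numbered libraries did not deviate together (correlations of -0.062 for knockout and wild type, -0.0882 for heterozygous and wild type and 0.0648 for knockout and heterozygous), so the numbers are not taken as pairs. With the replicate number as a block, 6 subunit genes and 7253 of all genes were called between knockout and wild type, 3 and 5564 between heterozygous and wild type, and 5 and 5448 between knockout and heterozygous. Under the block, Jarid2 passed in knockout against heterozygous (limma adjusted p = 0.0447) and Mbd3 was called lower in knockout against wild type (adjusted p = 0.0355), while Rbbp4 did not pass in heterozygous against wild type (adjusted p = 0.0526). Depth limited Phf19 most, with 8.62 read equivalents in its lowest library.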
